A study of Mus musculus with 8 samples.

Results

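Doxorubicin (DOX), an anthracycline drug used against cancer, was compared with saline in hearts of mice labelled MT-/-, which are null for metallothionein I and II. The samples were chosen by their source label, and 4 of the 8 arrays in the series met it, 2 from DOX-treated and 2 from saline-treated MT-/- mice. The other 4 arrays came from MT+/+ mice, described only as the corresponding wild type, with the same treatments and again 2 arrays each. All mice were males aged 6 to 8 weeks, and they received DOX once at 15 mg/kg into the peritoneal cavity, or an equal volume of saline. Hearts were collected on day 4, and each array is labelled as a biological replicate. The sources used here do not state the strain background, the kind of null allele or how many hearts an array holds.

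DOX stabilises breaks that topoisomerase II makes in DNA, and its quinone ring also cycles electrons onto oxygen, which gives rise to reactive oxygen species near iron and mitochondria. Metallothioneins are small proteins rich in cysteine that bind zinc and copper and can take up oxidants, and their genes are switched on by zinc through the metal sensor MTF1 and by glucocorticoids. The heart muscle cell holds many mitochondria and divides little, and under strain it returns to genes of the fetal heart. Around it lie fibroblasts that make collagen, endothelial cells, and resident macrophages.

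Values are log2(intensity + 16) after quantile normalization, and a change is the mean of both DOX arrays minus the mean of both saline arrays on that scale, with the standard error of the limma fit on 2 arrays a group after the ± sign. On this scale the changes of dim genes are understated. A gene was called where the limma p adjusted by the Benjamini-Hochberg method over the probe sets tested was under 0.05. Called genes are said to have risen or fallen. The p-values rest on the spread between these samples within every group of the series, moderated by the spread of other genes. Where an array was left out, its lone partner was assumed to vary like the other groups. Where an array is named below as saline 1, saline 2, DOX 1 or DOX 2, it is an MT-/- array.

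The 8 arrays were similar in overall brightness, with median intensities between 80 and 87.4. Both arrays of a group correlated at 0.976 to 0.984. The arrays DOX 1 and DOX 2 differed by more than 1 log2 unit at 182 probe sets, against 68 for saline 1 and saline 2. Ratios of 3' to 5' signal, a measure of intact RNA, were 1.14 and 1.23 for the actin control on the saline arrays and 0.913 and 1.18 on the DOX arrays. For the Gapdh control they were 1.05 and 1.04 against 1.04 and 0.993.

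The genes stated to be inactivated still gave signal on the MT-/- arrays. The deposited intensity of Mt1 was 4667 and 5322 on the saline arrays and 12549 and 12850 on the DOX arrays, above 99.1% or more of the probe sets of each array. Mt2 read 968 and 1018 on the saline arrays and 2218 and 2213 on the DOX arrays. On the MT+/+ arrays Mt1 read 3722 and 4034 with saline and 6735 and 9285 with DOX, and Mt2 read 452 and 485 with saline and 1210 and 2732 with DOX. With saline, both genes thus read higher on both MT-/- arrays than on both MT+/+ arrays, so no loss of transcript was seen. The kind of null allele is not stated, so the transcript level cannot settle the genotype. Whether the probes lie in a part of the gene that the allele removes was not tested. Transcript signal tells nothing about the proteins, and the groups are called by their labels throughout. Mt1 rose by 1.34 ± 0.12 (adjusted p 0.00117, 2.54-fold), and its DOX arrays lay apart from its saline arrays. A further, dim Mt1 probe set read 67 and 70 on the saline arrays and 63 and 87 on the DOX arrays, which overlap, and its change was 0.11. Mt2 missed the threshold, at 1.12 ± 0.30 (adjusted p 0.0634, or 0.0101 with a fit of only the 4 MT-/- arrays, 0.0173 with the replicate block, 0.00477 without MT+/+ DOX 1 and 0.00521 without MT+/+ DOX 2). Of the 18 tested genes of metallothioneins, MTF1 and the zinc transporters, 1 rose (5.56%) and 0 fell, and the median change was -0.01. Over all genes tested 2.76% rose and 3.98% fell.

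The promoters of both genes are shown because they hold the core of the metal response element, the site that MTF1 binds. They were taken from RefSeq with build GRCm38.p6, as the 300 bases from 250 before to 50 after the start that RefSeq annotates, on the plus strand at chr8:94178839-94179138 for Mt1 and chr8:94172368-94172667 for Mt2. Capitals mark matches to TGCACNC or TGCGCNC on either strand, where N is any base.
Mt1: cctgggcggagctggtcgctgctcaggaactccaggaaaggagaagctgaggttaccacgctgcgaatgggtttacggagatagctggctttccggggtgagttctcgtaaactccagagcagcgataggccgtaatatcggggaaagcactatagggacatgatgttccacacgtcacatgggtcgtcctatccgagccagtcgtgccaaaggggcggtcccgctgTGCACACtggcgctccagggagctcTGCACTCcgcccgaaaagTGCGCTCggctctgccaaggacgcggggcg
Mt2: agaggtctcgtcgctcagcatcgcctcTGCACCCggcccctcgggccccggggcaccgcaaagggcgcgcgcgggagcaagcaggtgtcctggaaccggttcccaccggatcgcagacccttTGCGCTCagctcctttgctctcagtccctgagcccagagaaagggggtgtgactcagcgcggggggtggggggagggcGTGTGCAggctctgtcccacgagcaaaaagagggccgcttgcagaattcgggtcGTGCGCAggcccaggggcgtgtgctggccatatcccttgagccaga
Mt1 had 3 matches and Mt2 had 4. Among 27025 genes with such a window, 28.2% had at least 1 match, and among the 10469 tested genes with one 39.3% did. A match is a description of the letters and not a measured binding site.

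DOX changed a broad set of transcripts in MT-/- hearts, with more falls than rises. Of the 24751 probe sets tested, 701 were higher (2.83%) and 837 lower (3.38%), and with the deposited scaling 592 were higher and 916 lower. With the brightest probe set standing for each of 13008 genes, 359 genes were higher (2.76%) and 518 lower (3.98%). Among the called genes 137 rose and 156 fell by 2-fold or more, and 19 rose and 14 fell by 4-fold or more. The median called rise was 0.86 and the median called fall -0.80, while the median over all genes tested was 0.00. On all 877 called genes both DOX arrays lay to the same side of both saline arrays. A further 44 genes moved by 2-fold or more and were not called.

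The probe set counts depended on single arrays. They were 167 higher and 224 lower without saline 1, 190 and 194 without saline 2, and 199 and 243 without DOX 2. Fitting only the 4 MT-/- arrays gave 430 higher and 518 lower, and the replicate block, a fit with the replicate number as a term, gave 1994 and 2194. Of the 877 called genes 152 kept the call without any 1 of the 8 arrays, and 877 kept it under the block. Calls lost without an array are named with the genes they concern. List counts are given with their range over the 8 fits that each leave out 1 array, followed in parentheses by the arrays whose omission moved the count by over 1.5 times, and with the replicate block where that moved it as far. Counts of 3 or fewer in a list, of which there were 92, ranged from 0 to 6 without 1 array and up to 8 with the block, and are given without a range.

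**Figure D1:**
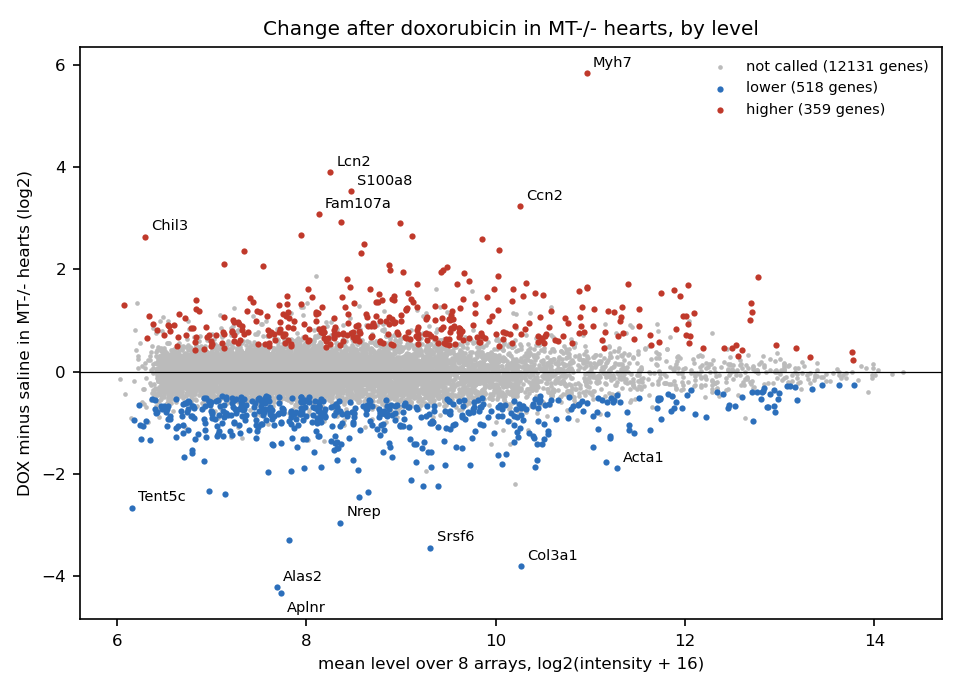
Each point is 1 of 13008 genes, with its mean log2(intensity + 16) over 8 arrays on the x axis and its DOX minus saline change in MT-/- hearts on the y axis; red points were called higher (359), blue points lower (518) and grey points were not called. Myh7 stands alone at the top at 5.84, and Aplnr and Alas2 lie lowest at -4.33 and -4.21.

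The steepest rise was in Myh7, the slow myosin heavy chain that the mouse heart makes before birth and again under strain. Its levels were 8.20 and 8.28 on the saline arrays and 13.96 and 14.20 on the DOX arrays, a rise of 5.84 ± 0.12 (adjusted p 2.11e-07, 57.2-fold). Both DOX arrays exceeded both saline arrays by more than 5 log2 units, and the arrays within a group lay close together. Next came Lcn2, a secreted lipocalin that binds bacterial iron carriers, with levels of 6.73 and 7.04 on the saline arrays and 10.75 and 10.81 on the DOX arrays (14.9-fold, adjusted p 0.000558). The calgranulin genes S100a8 and S100a9, whose proteins pair in neutrophils, rose by 3.53 ± 0.50 and 2.92 ± 0.41 (adjusted p 0.0059 and 0.00604). Ccn2, the matricellular protein also called connective tissue growth factor, rose by 3.24 ± 0.53, but its DOX arrays differed from each other, at 8.91 and 9.31 on the saline arrays and 11.30 and 13.40 on the DOX arrays. The call was lost for Ccn2 without saline 1 or saline 2 (adjusted p up to 0.0776).

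Below these lay Fam107a (3.08), Serpina3n (2.90), Slc10a6 (2.68), Fkbp5 (2.66), Chil3 (2.64), Zbtb16 (2.60), Apod (2.49), Sult1a1 (2.37), Cnksr1 (2.36) and Igfbp3 (2.32). Serpina3n encodes an acute phase protease inhibitor, Slc10a6 a carrier of sulfated steroids, Chil3 a chitinase-like protein of myeloid cells, Apod an apolipoprotein and Igfbp3 a carrier of insulin-like growth factors. Serpina3n read 8.02 and 9.27 on the saline arrays and 11.55 and 11.55 on the DOX arrays, where the saline arrays differ by more than 1 log2 unit and both lie below both DOX arrays. Chil3 read 5.15 and 5.47 on the saline arrays and 7.85 and 8.07 on the DOX arrays, crossing from below the array median of 6.62 to above it. The remaining members of the 25 largest rises were Map3k6 (2.11), Cirbp (2.09), Spock2 (2.06), Rhobtb1 (2.05), Trp53inp1 (1.99), Klf15 (1.98), Fmo2 (1.94), Tfdp2 (1.94), Cdkn1a (1.92) and Plin4 (1.88). Cirbp is an RNA-binding protein induced by cold, Tfdp2 a partner of the E2F factors, Fmo2 a flavin monooxygenase, and Plin4 a coat protein of lipid droplets. Adjusted p passed 0.05 for Serpina3n without DOX 2 (adjusted p 0.0552), Cnksr1 and Tfdp2 without saline 1 (adjusted p up to 0.0805), Trp53inp1 without MT+/+ saline 1, MT+/+ saline 2, saline 1, saline 2 or DOX 2 (adjusted p up to 0.223) and Klf15 and Cdkn1a without saline 1, saline 2 or DOX 2 (adjusted p up to 0.115). Another setting also ended a call, under median centring for Trp53inp1 (0.0506).

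The 3 largest falls were in Aplnr, Alas2 and Col3a1. Aplnr, the apelin receptor, which endothelial cells carry, read 10.20 and 9.97 on the saline arrays and 5.99 and 5.54 on the DOX arrays, a fall of 20.1-fold (-4.33 ± 0.31, adjusted p 0.000558). Alas2, the first enzyme of haem synthesis in red cell precursors, read 9.71 and 10.14 on the saline arrays and 5.68 and 5.74 on the DOX arrays (18.5-fold lower, adjusted p 0.00147). Both genes stood above the array median on both saline arrays and below it on both DOX arrays. In all, 57 called falls and 24 called rises crossed the median in this way. Col3a1, a fibrillar collagen, read 12.04 and 12.15 on the saline arrays and 9.01 and 7.57 on the DOX arrays (14.0-fold lower, adjusted p 0.00128). Its DOX arrays differed by more than 1 log2 unit and both lay far below the saline arrays.

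Other falls among the 25 largest included Srsf6 (-3.44), 2210407C18Rik (-3.30), Nrep (-2.95), Tent5c (-2.66), Hbb-b2 (-2.40), Klra5 (-2.33), Efnb3 (-1.95) and Opa3 (-1.82). Tent5c adds adenines to messenger RNA and is abundant in red cell precursors, Hbb-b2 is a beta globin, Klra5 belongs to a receptor family of natural killer cells, and Efnb3 is an ephrin. The Hbb-b2 probes may also bind other beta globins, which are near copies. For Srsf6, a splicing factor, the brightest probe set fell, while its further tested probe sets changed by -0.64, 0.14 and 0.04. Across the called genes, 666 further probe sets of 420 genes were tested, 601 of them had the same sign, 275 were called in the same direction and 2 in the opposite one, for Riok3 and Tsc22d3. A further probe set changed by under 25% of the brightest one, or the other way, for Insr (-0.16), Eda (0.02), Axin1 (0.03), Ndufs8 (0.02), Psmd11 (0.01), Psmd4 (0.21), Sqstm1 (0.19), Tfdp2 (0.17), Spock2 (0.25), Myom2 (0.25), Loxl1 (-0.22), Pi16 (-0.37) and Sparc (0.00) among the genes described here, and for Opa3 at -0.34, -0.19, 0.16 and 0.05. The call ended for Tent5c without saline 1, saline 2, DOX 1 or DOX 2 (adjusted p up to 0.149) and Opa3 without saline 2 or DOX 2 (adjusted p up to 0.0773). It was also lost under the mean of the gene's probe sets for Opa3 (0.0887).

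**Figure D2:**
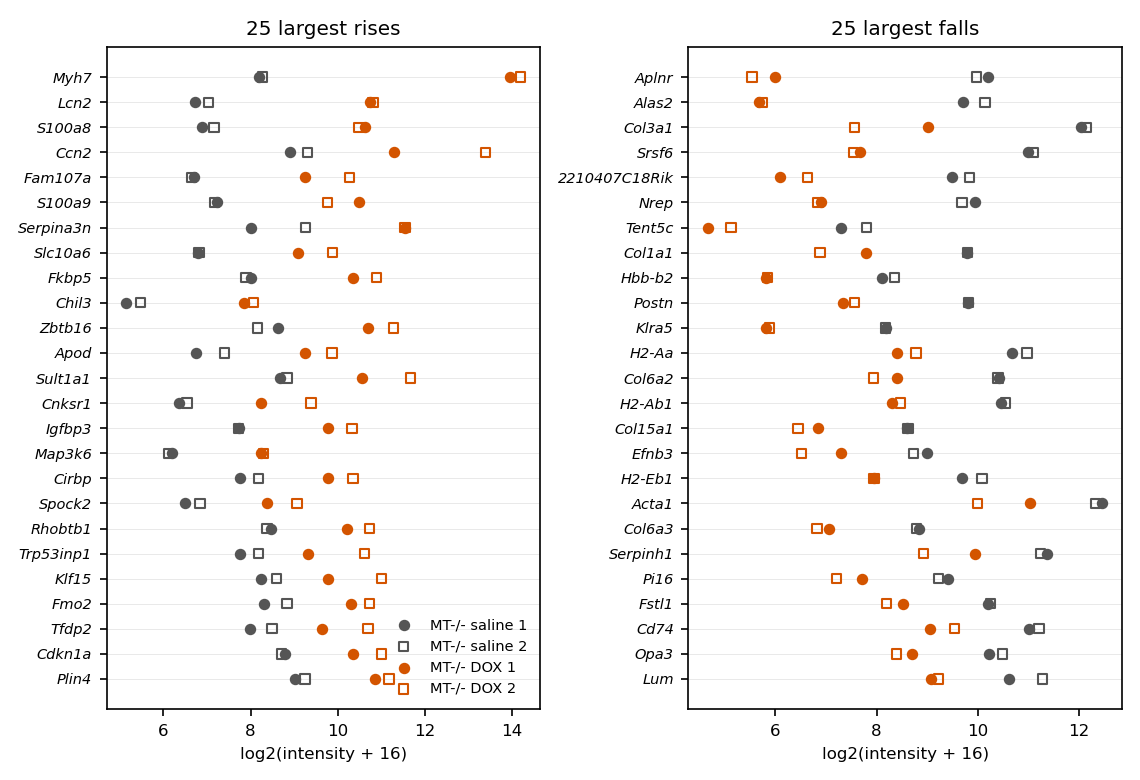
The x axis is log2(intensity + 16) on each of the 4 MT-/- arrays for the 25 genes with the largest called rise (left) and fall (right), grey for saline and orange for DOX, filled circles for replicate 1 and open squares for replicate 2. In every gene both DOX symbols lie on the same side of both saline symbols, and the widest gap between the DOX arrays is that of Ccn2, at 11.30 and 13.40.

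Named genes were then grouped by function in 60 lists, which held 1356 of the tested genes, and 102 of these rose and 139 fell. Every list count below stands against 2.76% higher and 3.98% lower over all genes tested. A gene can sit in several lists, as Lcn2, Per1 and Ddit4 do, so the list counts are not separate results. Among lists with at least 10 tested genes, the glucocorticoid response had the largest share of rises. Glucocorticoids are adrenal stress hormones whose receptor enters the nucleus and switches on genes in heart muscle as in most tissues. Of 25 tested members 14 rose and 0 fell, with a median change of 1.12. Fkbp5, the co-chaperone that dampens the receptor itself, read 8.01 and 7.90 on the saline arrays and 10.35 and 10.89 on the DOX arrays (6.33-fold, adjusted p 0.00138). Zbtb16, a zinc finger repressor, read 8.63 and 8.16 on the saline arrays and 10.70 and 11.28 on the DOX arrays (6.05-fold, adjusted p 0.00586). Map3k6, a stress kinase, read 6.20 and 6.12 on the saline arrays and 8.24 and 8.30 on the DOX arrays (4.31-fold, adjusted p 0.000157). In each of the 3 genes the groups lay apart by more than 1 log2 unit. Of the others, Sult1a1, a sulfotransferase, Ddit4, which restrains mTORC1, and Klf15, a regulator of amino acid and lipid use in the heart, rose by 2.37 ± 0.33, 1.53 ± 0.20 and 1.98 ± 0.36. The list also holds Lcn2 (3.90) and Mt1 (1.34), and the smaller rises Klf9 (1.18), Per1 (1.32), Nfkbia (1.22), Cebpb (1.11) and Tsc22d3 (1.0). For Tsc22d3, also known as GILZ, another probe set fell by 0.99. No call remained for Klf15, Per1, Nfkbia and Cebpb without saline 1, saline 2 or DOX 2 (adjusted p up to 0.174), Klf9 without saline 2 (adjusted p 0.0566) and Tsc22d3 without saline 1, saline 2 or DOX 2 (adjusted p up to 0.201). A call also failed under the mean of the gene's probe sets for Tsc22d3 (0.206). With 1 array left out 7 to 16 glucocorticoid genes rose (saline 1, saline 2 or DOX 2).

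The promoters of Lcn2 and Map3k6 are shown because, with Mt1, they were the called members of the list whose window held ACANNNTGT, the paired half-sites that the glucocorticoid receptor binds as a dimer. They come from RefSeq with build GRCm38.p6, at chr2:32387690-32387989 on the minus strand for Lcn2 and chr4:133240568-133240867 on the plus strand for Map3k6, with the match in capitals. The motif reads the same on both strands.
Lcn2: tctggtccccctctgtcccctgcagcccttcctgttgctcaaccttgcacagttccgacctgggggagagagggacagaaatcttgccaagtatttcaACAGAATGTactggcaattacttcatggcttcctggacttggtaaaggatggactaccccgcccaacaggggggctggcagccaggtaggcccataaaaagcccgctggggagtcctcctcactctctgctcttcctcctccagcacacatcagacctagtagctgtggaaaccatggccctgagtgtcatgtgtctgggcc
Map3k6: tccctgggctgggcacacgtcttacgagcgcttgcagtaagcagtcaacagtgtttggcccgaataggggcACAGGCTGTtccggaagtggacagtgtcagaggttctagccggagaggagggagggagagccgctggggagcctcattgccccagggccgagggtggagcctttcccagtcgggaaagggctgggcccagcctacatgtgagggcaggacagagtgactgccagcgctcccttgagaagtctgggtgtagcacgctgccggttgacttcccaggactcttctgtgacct
In the list 4 of 21 genes with a window had a match, and 3 of the 13 called higher. The share was 7.90% of all 27025 genes with a window and 5.44% of those tested, 10.3% of the 292 genes called higher and 4.88% of the 410 called lower. The window covers 300 bases, and letters outside it were not searched.

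Some circadian clock genes rose as well. Of 19 tested members 4 rose and 0 fell, at a median of 0.27, and the called genes were Tef (1.23), Nr1d2 (1.21), Per1 (1.32) and Cry2 (0.88). Tef is a transcription factor that the clock drives, Nr1d2 a nuclear receptor of the repressor limb, and Per1 and Cry2 are repressors of the core loop. Tef, at 8.51 and 8.30 on the saline arrays and 9.48 and 9.80 on the DOX arrays, kept its call without any 1 array. As given above, the Per1 call did not hold without some arrays. The time of day at which hearts were taken is not stated. The E-box CACGTG, which clock activators bind, was found in the window of 4 of 16 members, against 11.3% of the tested genes, and 2 of the 4 called members, Per1 and Tef, held it. The call was lost for Nr1d2 without saline 2 or DOX 2 (adjusted p up to 0.063) and Cry2 without saline 1, saline 2 or DOX 2 (adjusted p up to 0.153). Another setting also ended a call, under a fit of only the 4 MT-/- arrays for Cry2 (0.0522). Leaving out 1 array, 1 to 7 clock genes rose (saline 2, DOX 1 or DOX 2). With the replicate block 8 clock genes rose.

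Some genes of neutrophils and of the acute phase rose. Of 12 tested neutrophil markers 4 rose and 0 fell, namely Lcn2 (3.90), S100a8 (3.53), S100a9 (2.92) and Mmp8 (1.09), where Mmp8 is the neutrophil collagenase. S100a8 read 6.89 and 7.16 on the saline arrays and 10.62 and 10.49 on the DOX arrays, and S100a9 read 7.24 and 7.17 on the saline arrays and 10.50 and 9.76 on the DOX arrays. In both, the DOX arrays lay above the saline arrays by more than 2 log2 units. Other neutrophil genes were not called: Camp, a granule peptide, gave -0.04 ± 0.13 (adjusted p 0.93), Ngp, another granule protein, gave 0.35 ± 0.20 (adjusted p 0.393, or 0.0447 with the replicate block), and Mmp9, a gelatinase, gave 0.08 ± 0.11 (adjusted p 0.781). The summed intensity of the 12 markers was 1661 and 1571 on the saline arrays and 6236 and 5440 on the DOX arrays. Lcn2, S100a8 and S100a9 made up most of that step, with 328 and 371 against 4692 and 4059, while the other 9 markers summed to 1333 and 1199 against 1543 and 1381, and the median change of the list was 0.25. Array background is above 0, so no marker read 0, and the part of cell numbers in these values was not tested. Of 36 genes of inflammation and the acute phase 6 rose and 2 fell, with a median of -0.01. The rises included Serpina3n (2.90), Osmr (1.30) and Saa3 (0.68), where Osmr is the oncostatin M receptor and Saa3 a serum amyloid protein, and the falls included the chemokine Cxcl9, at -1.32 ± 0.13. Adjusted p passed 0.05 for Serpina3n without DOX 2 (adjusted p 0.0552), Mmp8 without saline 1 or saline 2 (adjusted p up to 0.06), Osmr without saline 1, saline 2 or DOX 2 (adjusted p up to 0.132) and Saa3 without saline 1, saline 2, DOX 1 or DOX 2 (adjusted p up to 0.145). Over the 8 fits without 1 array, 1 to 6 inflammation genes rose (saline 1, saline 2 or DOX 2).

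Some genes of MHC class II, which present peptides to T cells, fell. Of 10 tested members 0 rose and 5 fell, and the median was -0.65. H2-Aa read 10.68 and 10.97 on the saline arrays and 8.40 and 8.78 on the DOX arrays (4.71-fold lower, adjusted p 0.00119). H2-Ab1 and H2-Eb1 fell by 4.33-fold and 3.81-fold (adjusted p 0.0012 and 0.00191), and the invariant chain Cd74 and the loading factor H2-DMa by 3.53-fold and 1.72-fold. In none of these did a DOX array reach a saline array. Of 24 macrophage markers 0 rose and 5 fell, at a median of -0.38, among them Lyz2 (-1.13), Folr2 (-0.82) and Tyrobp (-0.74), a lysozyme, a folate receptor and a signalling adaptor. The summed intensity of the macrophage markers was 14492 and 15793 on the saline arrays and 10505 and 10794 on the DOX arrays, and its part in the fall of MHC class II was not tested. Of 38 interferon-induced genes 0 rose and 1 fell, at a median of -0.25, and of 7 lymphocyte markers 0 rose and 0 fell. The call ended for Cd74 and Lyz2 without saline 2 (adjusted p up to 0.0615), H2-DMa and Tyrobp without saline 1, saline 2 or DOX 2 (adjusted p up to 0.123) and Folr2 without saline 2 or DOX 2 (adjusted p up to 0.12). Without 1 array, 3 to 5 MHC class II genes fell (saline 2) and 0 to 5 macrophage markers fell (saline 1, saline 2 or DOX 2). Under the replicate block 11 macrophage markers fell.

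The extracellular matrix had the largest share of falls of any list. Matrix genes encode the collagens and associated proteoglycans that fibroblasts lay down around muscle fibres. Of 37 tested members 1 rose and 22 fell, with a median of -1.0, and with 1 array left out 16 to 23 fell. The fibrillar collagens fell by 14.0-fold for Col3a1, 5.46-fold for Col1a1 and 2.99-fold for Col1a2. Col1a1 read 9.78 and 9.80 on the saline arrays and 7.80 and 6.88 on the DOX arrays, so both DOX arrays lay far below both saline arrays, with DOX 2 the lower. Collagen VI, which anchors cells to the fibrillar network, fell in the chains Col6a1 (-1.57), Col6a2 (-2.23) and Col6a3 (-1.88), and so did Col5a2 (-1.50), Col8a1 (-1.40) and Col15a1 (-1.96). The matricellular protein periostin, made by activated fibroblasts, fell to levels of 7.34 and 7.57 from 9.81 on each saline array (5.11-fold, adjusted p 0.00196). Proteoglycans of the small leucine-rich family and others fell as well, Bgn (-1.17), Ogn (-1.29), Aspn (-1.29), Lum (-1.81) and Vcan (-1.04), and so did the microfibril genes Mfap4 (-1.0) and Mfap5 (-1.24). The rise was Thbs2 (0.83), a thrombospondin. No call remained for Lum without saline 2 or DOX 2 (adjusted p up to 0.095) and Thbs2 without saline 1 (adjusted p 0.0656).

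In a whole heart, fewer cells of a type and less RNA per cell cannot be told apart. Of 17 fibroblast markers 1 rose and 5 fell, at a median of -0.61, and the falls were Pi16 (-1.86), Dpt (-1.72), Serpinf1 (-1.53), Mfap5 (-1.24) and Lum (-1.81), some of which are matrix genes themselves. Their summed intensity was 24641 and 28212 on the saline arrays and 21943 and 21040 on the DOX arrays, and its part in the matrix result was not tested. Enzymes and chaperones that handle collagen moved both ways. Serpinh1, the collagen chaperone of the endoplasmic reticulum, and Pcolce, which enhances procollagen cleavage, fell, at -1.86 ± 0.28 and -1.67 ± 0.20, and so did the crosslinking enzyme Loxl1, at -1.48 ± 0.27. The crosslinking enzyme Lox instead rose, at 7.40 and 7.36 on the saline arrays and 8.75 and 8.96 on the DOX arrays (2.78-fold, adjusted p 0.00119), as did the inhibitors of metalloproteinases Timp3 and Timp4 (1.47 ± 0.16 and 0.82 ± 0.15). Of the 29 enzymes tested 5 rose and 4 fell, at a median of -0.12. The call was lost for Serpinh1 without saline 1 (adjusted p 0.0571) and Loxl1 and Timp4 without saline 1, saline 2 or DOX 2 (adjusted p up to 0.117). With 1 array left out 2 to 5 matrix enzymes rose and 1 to 4 matrix enzymes fell (saline 1, saline 2 or DOX 2). In the fit with the replicate block 9 fibroblast markers fell and 10 matrix enzymes fell.

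Genes of the basement membrane, the sheet that underlies endothelium and muscle cells, and of its receptors fell in smaller number. Of 23 tested 0 rose and 5 fell, at a median of -0.25. They included the integrin chains Itga6 (-1.41) and Itga1 (-1.06), receptors for laminin and collagen, and Sparc (-1.30) and Nid1 (-0.79), both matrix proteins. Of 33 genes of TGF-beta and BMP signalling 1 rose (3.03%) and 3 fell (9.09%), at a median of -0.05. The rise was Ccn2 (3.24), whose call was lost without saline 1 or saline 2. The falls included Fstl1, a secreted follistatin-like protein, at -1.86 ± 0.17, and the latent TGF-beta binding protein Ltbp4, at -1.05 ± 0.22. Adjusted p passed 0.05 for Sparc, Nid1 and Ltbp4 without saline 1, saline 2 or DOX 2 (adjusted p up to 0.179). Leaving out 1 array, 2 to 5 basement membrane genes fell (saline 1, saline 2 or DOX 2). With the replicate block 9 basement membrane genes fell.

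Genes of cardiac strain moved in both directions. Of 21 tested 7 rose and 4 fell, at a median of 0.29. Besides Myh7, the stretch-induced repressor Ankrd1 rose by 1.86 ± 0.20 (3.63-fold, adjusted p 0.00197), and Corin, the protease that activates atrial natriuretic peptide, by 0.88 ± 0.13. Acta1, the skeletal actin that is also a fetal cardiac gene, went the other way, at 12.46 and 12.33 on the saline arrays and 11.03 and 9.99 on the DOX arrays (3.71-fold lower, adjusted p 0.00797). The smooth muscle actin Acta2 also fell, at -1.76 ± 0.29. The natriuretic peptide genes were not called: Nppa, at 11.89, 12.05, 12.17 and 12.77 on saline 1, saline 2, DOX 1 and DOX 2, gave 0.50 ± 0.24 (adjusted p 0.302), and Nppb, at 12.35, 11.46, 12.49 and 13.30, gave 0.99 ± 0.39 (adjusted p 0.189). For Nppb saline 1 and DOX 1 lay within 0.2 log2 units of each other. The call ended for Corin without saline 1 or DOX 2 (adjusted p up to 0.07), Acta1 without saline 1 (adjusted p 0.0588) and Acta2 without saline 1, saline 2 or DOX 2 (adjusted p up to 0.0783). Over the 8 fits without 1 array, 2 to 8 strain genes rose and 1 to 4 strain genes fell (saline 1, saline 2 or DOX 2).

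Contractile genes were called in both directions. Of 21 sarcomere genes 3 rose and 2 fell, which is 14.3% and 9.52% against 2.76% and 3.98% of all genes, and the median was -0.10. The rises included Nrap (1.17) and Myom2 (1.17), for a protein of assembling myofibrils and an M-band protein. The fast myosin heavy chain Myh6 is the main one of the adult mouse heart. It read 13.84 and 13.92 on the saline arrays and 13.66 and 13.56 on the DOX arrays, a step of -0.27 ± 0.06. A further Myh6 probe set changed by -0.51, and the mean of its probe sets by -0.39. Of 27 genes of the Z-disc and cytoskeleton 5 rose (18.5%) and 2 fell (7.41%), at a median of 0.23. The largest rise was Ankrd1 (1.86). The deepest fall was vimentin, Vim, the intermediate filament of cells other than muscle, at -1.14 ± 0.12. Of 25 calcium cycling genes 0 rose and 3 fell, including Casq2 (-0.82) and Hrc (-0.71), for the calcium buffer calsequestrin and a calcium-binding protein of the same store. The calcium pump Atp2a2 gave -0.06 ± 0.07 (adjusted p 0.717), and the release channel Ryr2 gave -0.31 ± 0.15 (adjusted p 0.293). Further Atp2a2 probe sets changed by -0.10, -0.52, -0.23 and 0.18, and a further Ryr2 probe set by -0.20. Of 23 ion channel genes 0 rose and 0 fell in the limma test, and with the replicate block 1 rose and 1 fell. Their median was -0.07. The summed intensity of 19 cardiomyocyte markers was 222064 and 224728 on the saline arrays and 212604 and 209773 on the DOX arrays. No call remained for Myh6 without MT+/+ saline 2, saline 1, saline 2 or DOX 2 (adjusted p up to 0.204), Casq2 without saline 1 (adjusted p 0.0526) and Hrc without saline 1 or saline 2 (adjusted p up to 0.102). It was also lost under median centring for Myh6 (0.0739), under no filter for Myh6 (0.0605), with no mean-variance trend for Myh6 (0.215), under a fit of only the 4 MT-/- arrays for Myh6 (0.0748) and under the mean of the gene's probe sets for Myh6 (0.298). Without 1 array, 1 to 6 Z-disc and cytoskeleton genes rose (any MT+/+ array, saline 1, saline 2 or DOX 2). Under the replicate block 10 Z-disc and cytoskeleton genes rose.

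**Figure D3:**
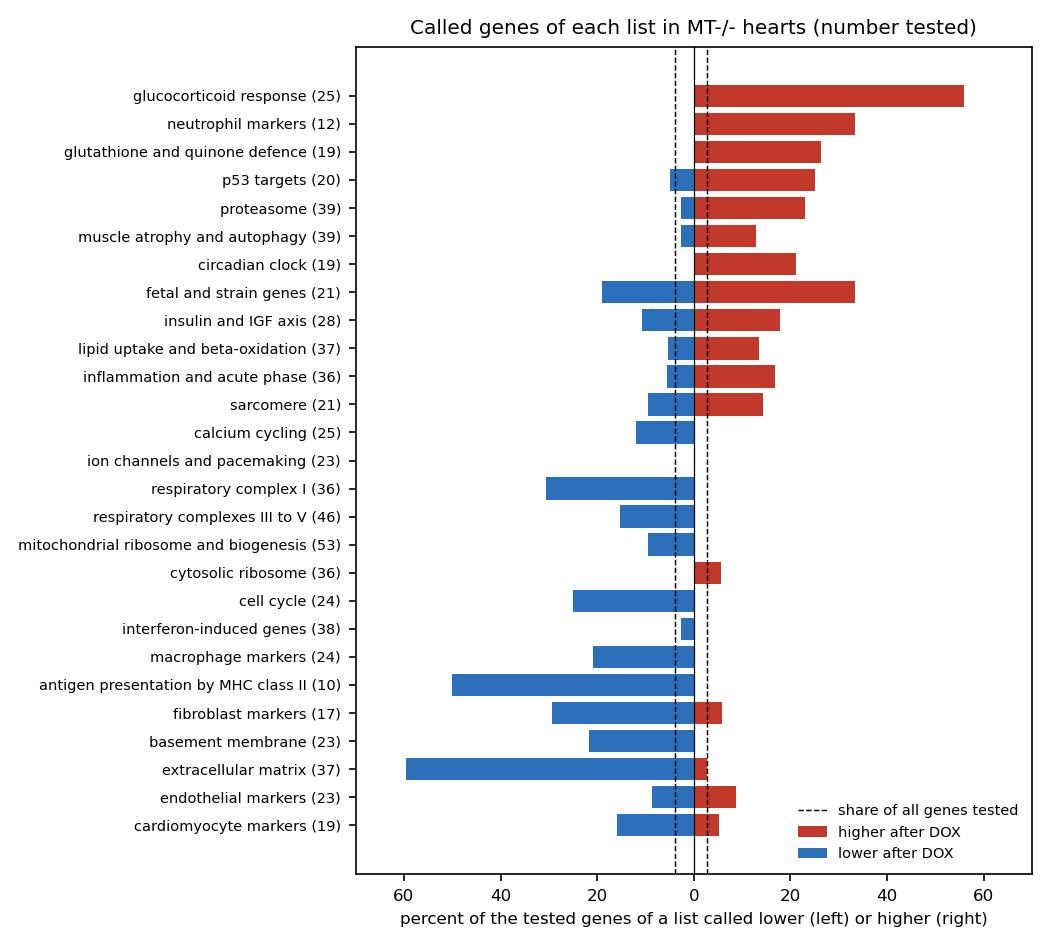
Bars show, for 27 of the gene lists, the percent of tested members called higher (red, right) or lower (blue, left) after DOX in MT-/- hearts, with the number tested in parentheses. Dashed lines mark the shares of all 13008 genes, 2.76% higher and 3.98% lower. The glucocorticoid response list reaches 56.0% higher and the extracellular matrix list 59.5% lower.

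Genes of oxidative phosphorylation, by which mitochondria make ATP, fell by small amounts in many members. For complex I, which takes electrons from NADH, of 36 tested genes 0 rose and 11 fell, 33 of 36 changes were negative, and the median was -0.25. Ndufv3 read 13.21 and 13.16 on the saline arrays and 12.54 and 12.48 on the DOX arrays (adjusted p 0.00119) and Ndufv2 read 13.18 and 13.13 on the saline arrays and 12.68 and 12.57 on the DOX arrays (adjusted p 0.00353). The steps between groups are under 1 log2 unit, and the groups lie apart. Further falls included Ndufs8 (-0.67) and Ndufc1 (-0.50). For complexes III to V, of 46 tested genes 0 rose and 7 fell, 40 of 46 changes were negative, and the median was -0.14. They included Cox7a1, the muscle form of a cytochrome oxidase subunit, at -0.69 ± 0.08, and Atp5g1, a ring subunit of the ATP synthase, at -0.55 ± 0.07. Of 53 genes of the mitochondrial ribosome and of biogenesis 0 rose and 5 fell, at a median of -0.15. Over all genes tested 50.1% of the changes were negative. The call was lost for Ndufs8 without saline 1 (adjusted p 0.0536) and Ndufc1 without saline 1 or saline 2 (adjusted p up to 0.0851). With 1 array left out 2 to 14 complex I genes fell (any MT+/+ array, saline 1, saline 2 or DOX 2), 2 to 11 genes of complexes III to V fell (saline 1, saline 2, DOX 1 or DOX 2) and 0 to 10 mitochondrial ribosome genes fell (MT+/+ DOX 1, MT+/+ DOX 2, saline 1, saline 2, DOX 1 or DOX 2). In the fit with the replicate block 20 complex I genes fell, 16 genes of complexes III to V fell and 14 mitochondrial ribosome genes fell.

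Fuel genes showed scattered changes. Of 37 genes of lipid uptake and beta-oxidation 5 rose and 2 fell, and the rises came mostly from storage and lipolysis, with Plin4 (1.88), Pnpla2 (0.89) and Lipe (0.74), for a droplet coat protein and the lipases ATGL and HSL. Plin4 read 9.02 and 9.25 on the saline arrays and 10.86 and 11.18 on the DOX arrays (3.69-fold, adjusted p 0.00117). Ucp3, a mitochondrial carrier induced by fatty acids, fell, at 8.08 and 7.59 on the saline arrays and 6.78 and 6.27 on the DOX arrays (2.48-fold, adjusted p 0.0171). Of 32 genes of glucose use 0 rose and 4 fell, and of 26 of the citric acid cycle 1 rose and 4 fell. In the insulin and IGF axis 5 rose and 3 fell of 28. The insulin receptor Insr and Eif4ebp1, a translation repressor that insulin signalling switches off, rose by 1.36 ± 0.21 and 1.58 ± 0.15, though a further Insr probe set changed by -0.16, and the growth factor Igf1 fell, at -0.97 ± 0.17. Adjusted p passed 0.05 for Pnpla2, Lipe and Igf1 without saline 1, saline 2 or DOX 2 (adjusted p up to 0.143), Ucp3 without saline 1 or DOX 2 (adjusted p up to 0.127) and Insr without saline 1 or saline 2 (adjusted p up to 0.0656). Leaving out 1 array, 1 to 6 lipid genes rose (MT+/+ saline 1, MT+/+ saline 2, saline 1, saline 2 or DOX 2) and 0 to 5 glucose genes fell, 0 to 4 citric acid cycle genes fell and 2 to 6 insulin and IGF genes rose (saline 1, saline 2 or DOX 2). With the replicate block 9 glucose genes fell and 7 citric acid cycle genes fell.

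Enzymes that defend against quinones and oxidants rose in part. Many of them are targets of the transcription factor NRF2, which electrophiles release from KEAP1. Of 19 tested genes of glutathione and quinone defence 5 rose and 0 fell, at a median of 0.20. Nqo1, the quinone reductase, read 8.76 and 9.0 on the saline arrays and 10.66 and 10.54 on the DOX arrays (3.29-fold, adjusted p 0.00116). Ephx1, an epoxide hydrolase, rose by 1.29 ± 0.14, Hmox1, which breaks down haem, by 1.17 ± 0.19, and Gclm, the modifier subunit for glutathione synthesis, by 1.0 ± 0.15. The catalytic subunit Gclc gave 0.35 ± 0.11 (adjusted p 0.119, or 0.0396 with the replicate block and 0.0332 with the mean of the gene's probe sets), and the thioredoxin reductase Txnrd1 gave 0.67 ± 0.19 (adjusted p 0.0757, or 0.019 with the replicate block). The antioxidant response motif TGACNNNGC lay in the promoter window of 6 of 15 members, against 16.6% of the tested genes, and in that of 1 of the 4 called members with a window, Gclm. Of 20 genes that remove superoxide and peroxide 1 rose and 3 fell: Gpx3, the secreted glutathione peroxidase, rose by 1.47 ± 0.11, and the falls included Glrx (-1.06) and Sod3 (-0.95), for a glutaredoxin and the extracellular superoxide dismutase. Of 18 glutathione transferases 2 rose (11.1%) and 1 fell (5.56%), against 2.76% and 3.98% of all genes. Of 18 iron genes 2 rose (11.1%) and 1 fell (5.56%). Tfrc, the transferrin receptor, read 11.37, 10.87, 10.08 and 7.78 on saline 1, saline 2, DOX 1 and DOX 2 and gave -2.19 ± 0.62 (adjusted p 0.078, or 0.0229 with the replicate block and 0.00311 without DOX 1). The call ended for Hmox1 without saline 2 or DOX 2 (adjusted p up to 0.0838) and Gclm, Glrx and Sod3 without saline 1 or saline 2 (adjusted p up to 0.0671). Over the 8 fits without 1 array, 3 to 5 glutathione and quinone genes rose (saline 1 or saline 2).

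The probe sets of Top2a, the topoisomerase of dividing cells and a target of DOX, disagreed. Its brightest probe set gave 0.05 ± 0.13 (adjusted p 0.901), a further one was called lower, at -1.43 ± 0.28 (adjusted p 0.0211), and their mean was -0.69 (adjusted p 0.0521). The call of the further one ended without saline 1, saline 2 or DOX 2 (adjusted p up to 0.15). Top2b, the form of resting heart muscle, was not called, at -0.03 ± 0.13 (adjusted p 0.941). In the list of DOX targets, metabolism and efflux, of 19 tested 1 rose and 1 fell: Xdh, a reductase that can act on the DOX quinone, rose by 1.77 ± 0.14, and the aldo-keto reductase gene Akr1c14 fell, at -1.31 ± 0.15. Of 20 targets of p53, the factor that DNA breaks activate, 5 rose and 1 fell, at a median of 0.15. Cdkn1a, the p21 inhibitor that halts division, read 8.79 and 8.71 on the saline arrays and 10.35 and 11.00 on the DOX arrays (3.79-fold, adjusted p 0.00817). Trp53inp1, Ddit4 and Perp rose by 1.99 ± 0.46, 1.53 ± 0.20 and 1.04 ± 0.13, while Ccng1 fell, at -0.88 ± 0.14. As given above, the Trp53inp1 call did not hold without some arrays or under median centring. Ddit4 is also counted in the glucocorticoid and ER stress lists. Mdm2, which marks p53 for breakdown, gave -0.23 ± 0.16 (adjusted p 0.514). Of 24 cell cycle genes 0 rose and 6 fell, at a median of -0.26, among them Ccnd1 (-1.50) and Cdk1 (-1.33), a cyclin and the kinase of mitosis. Of 22 DNA repair genes 0 rose and 1 fell (4.55%), and of 22 genes of cell death 2 rose (9.09%) and 1 fell (4.55%). Bnip3, a mitochondrial protein that calls for mitophagy, rose by 1.60 ± 0.19. No call remained for Cdkn1a and Ccng1 without saline 1, saline 2 or DOX 2 (adjusted p up to 0.074), Ccnd1 without saline 1, saline 2 or DOX 1 (adjusted p up to 0.174) and Cdk1 without saline 1 or DOX 2 (adjusted p up to 0.148). Without 1 array, 2 to 6 p53 targets rose (saline 1, saline 2 or DOX 2) and 0 to 6 cell cycle genes fell (saline 1 or DOX 2). Under the replicate block 10 cell cycle genes fell.

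Genes that take proteins apart rose in part. Of 39 proteasome genes 9 rose and 1 fell, at a median of 0.16. Psmd4, a ubiquitin receptor of the regulatory particle, read 10.41 and 10.39 on the saline arrays and 11.64 and 11.70 on the DOX arrays (2.42-fold, adjusted p 0.000897), and the ATPase Psmc1 and the lid subunit Psmd11 rose by 0.90 ± 0.13 and 0.89 ± 0.16. The member that fell was Psme1, a subunit of the activator that interferon induces, at -0.91 ± 0.15. Of 39 genes of muscle atrophy and autophagy 5 rose and 1 fell, at a median of 0.25. Sqstm1, which delivers ubiquitin-tagged cargo, read 11.22 and 11.03 on the saline arrays and 12.57 and 12.75 on the DOX arrays (2.91-fold, adjusted p 0.00117), and Map1lc3b, which coats the autophagosome, rose by 1.14 ± 0.11. Of the muscle ubiquitin ligases, Fbxo32 missed the threshold in its brightest probe set, at 1.17 ± 0.39 (adjusted p 0.128, or 0.0014 with the replicate block and 0.0425 without DOX 1), while a further probe set was called, at 1.15 ± 0.28 (adjusted p 0.0471). That call ended without saline 1, saline 2, DOX 2 or either MT+/+ saline array (adjusted p up to 0.27), and adjusted p was 0.051 to 0.0558 with the deposited scaling, median centring or a pseudocount of 64. Trim63 was not called, at 0.93 ± 0.27 (adjusted p 0.0857, or 0.006 with the replicate block and 0.00688 without DOX 1). The call was lost for Psmc1 without saline 1 or saline 2 (adjusted p up to 0.0612) and Psmd11 and Psme1 without saline 1, saline 2 or DOX 2 (adjusted p up to 0.119). With 1 array left out 1 to 8 proteasome genes rose (saline 1, saline 2 or DOX 2) and 4 to 10 atrophy and autophagy genes rose (DOX 1). In the fit with the replicate block 17 atrophy and autophagy genes rose.

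Folding and stress genes gave mixed results. Of 22 heat shock and cold-induced genes 2 rose (9.09%) and 3 fell (13.6%). Cirbp read 7.75 and 8.19 on the saline arrays and 9.77 and 10.35 on the DOX arrays (4.26-fold). The chaperone Hsph1 fell, at -1.50 ± 0.21. Of 29 genes of ER stress and the amino acid response 2 rose (6.9%) and 1 fell (3.45%). The largest rise was Herpud1, a component of ER-associated degradation, at 1.64 ± 0.21. Of 22 immediate early genes 2 rose and 0 fell. Here saline 2 stood above saline 1 for 19 of 22 genes, by a median of 0.66 log2 units, and Fos, read at 6.37, 9.94, 6.58 and 7.18 on saline 1, saline 2, DOX 1 and DOX 2, gave -1.28 ± 0.90 (adjusted p 0.509, or 0.0122 without saline 1). Egr1, at 7.72, 10.72, 7.64 and 8.15 on the same arrays, gave -1.33 ± 0.75 (adjusted p 0.38, or 0.0074 without saline 1). Both genes varied more between the saline arrays than between the groups.

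Vessel and red cell genes included some of the deepest falls, while most markers of both cell types were not called. Of 21 genes of nitric oxide and vascular tone 1 rose and 6 fell, led by Aplnr at 20.1-fold. Of 23 endothelial markers 2 rose and 2 fell, at a median of -0.13. In all, 15 of 23 changes were negative, the deepest at -1.05. The rises were Sox17 and Flt1, an endothelial factor and a VEGF receptor, at 1.62 ± 0.35 and 0.78 ± 0.15. Cdh5, the cadherin that defines endothelium, gave -0.13 ± 0.20 (adjusted p 0.797). The summed endothelial intensity was 26353 and 25939 on the saline arrays and 25378 and 25809 on the DOX arrays. Of 11 red cell markers 0 rose and 3 fell, namely Alas2 (-4.21), Hbb-b2 (-2.40) and Tent5c (-2.66), while Hba-a1, an alpha globin, gave 0.18 ± 0.11 (adjusted p 0.392). Their summed intensity was 3984 and 4448 on the saline arrays and 2591 and 2373 on the DOX arrays, and the part of blood left in the tissue was not tested. Adjusted p passed 0.05 for Sox17 without saline 1, saline 2 or DOX 2 (adjusted p up to 0.196) and Flt1 and Tent5c without saline 1, saline 2, DOX 1 or DOX 2 (adjusted p up to 0.149). Leaving out 1 array, 1 to 5 vascular tone genes fell (saline 1, saline 2, DOX 1 or DOX 2).

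The change after DOX in MT-/- hearts was then set beside that in MT+/+ hearts, which asks whether hearts labelled as lacking metallothionein respond otherwise. In MT+/+ hearts 161 genes were higher (1.24%) and 188 lower (1.45%). Both comparisons use different arrays and 1 common estimate of spread. Of the 877 genes called in MT-/- hearts 32.2% were also called in MT+/+ hearts, and of the 349 called in MT+/+ hearts 80.8% were also called in MT-/- hearts. All 282 shared calls had the same direction. Of the 877 genes 868 (99.0%) had the same sign in MT+/+ hearts, against 71.3% of all genes tested. The log2 changes of both genotypes correlated across 13008 genes at 0.79, as a description, since genes are not independent replicates. The change was larger in MT-/- hearts for 768 of the 877 genes called there, and larger in MT+/+ hearts for 164 of the 349 called in those, and each count is tilted by the genotype that chose the genes.

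A count that differs between genotypes is not a test of the difference. The difference itself, the DOX change in MT-/- minus that in MT+/+, was called for 0 of 24751 probe sets (0%). Its smallest adjusted p was 0.901, and 573 probe sets had an unadjusted p under 0.05. With the replicate block 1 was called, Lcn2, at a difference of 2.71 (adjusted p 0.0222). Without MT+/+ saline 1 another was called, S100a8, at 4.66 (adjusted p 0.00223). Over the other settings the adjusted p lay between 0.21 and 1 for Lcn2 and between 0.127 and 1 for S100a8.

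**Figure D4:**
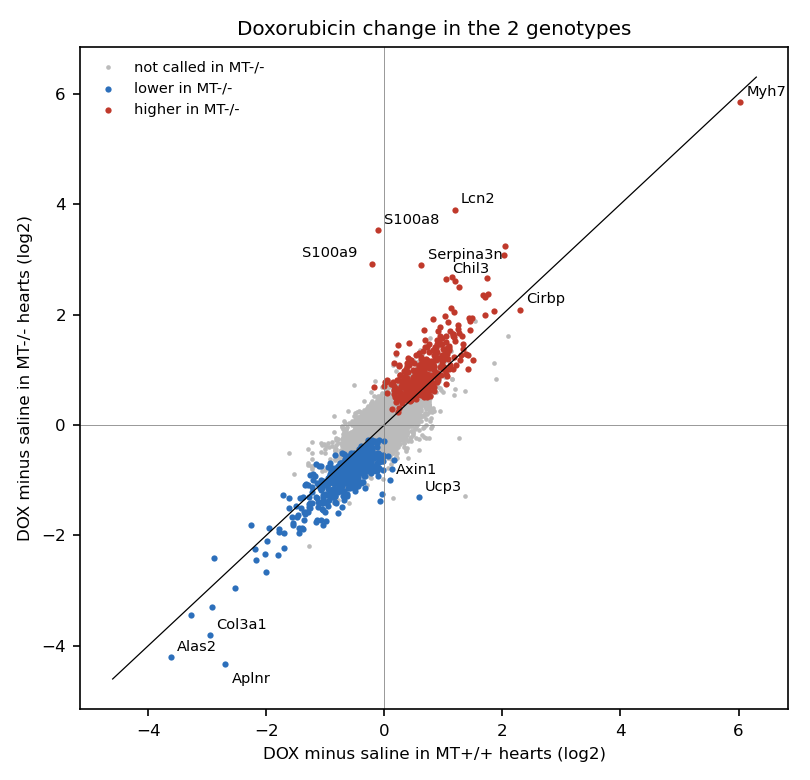
Each point is 1 of 13008 genes, with its DOX minus saline log2 change in MT+/+ hearts on the x axis and in MT-/- hearts on the y axis; colours give the call in MT-/- hearts and the line marks equal change. Myh7 lies near the line at 6.03 and 5.84, and S100a8 lies near 0 on the x axis and at 3.53 on the y axis.

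The 10 genes with the smallest p for this difference are described with no call. Lcn2 rose by 3.90 ± 0.27 in MT-/- hearts and changed by 1.19 ± 0.27 in MT+/+ hearts. Chil3 and Map3k6 rose by 2.64 ± 0.17 and 2.11 ± 0.11, against 1.05 ± 0.17 and 1.13 ± 0.11 in MT+/+ hearts. S100a8 and S100a9 changed by -0.11 ± 0.50 and -0.20 ± 0.41 in MT+/+ hearts, where saline 1 and saline 2 of that genotype differed by about 2 log2 units for S100a8, at 7.21 and 9.19. Lox rose by 1.48 ± 0.14, against 0.42 ± 0.14, Eda, a ligand of the tumour necrosis factor family, by 1.07 ± 0.11, against 0.25 ± 0.11, and Tent5b by 1.30 ± 0.17, against 0.19 ± 0.17. For Ucp3 the signs were opposite, -1.31 ± 0.24 against 0.58 ± 0.24. Axin1, a scaffold that restrains Wnt signalling, fell, at -1.0 ± 0.12, against 0.09 ± 0.12, and it was the saline arrays that stood apart: they read 8.60 and 8.58 in MT-/- hearts and 7.28 and 7.35 in MT+/+ hearts. A further probe set changed in MT-/- hearts by 0.03 for Axin1, 0.02 for Eda and -0.41 for Ucp3. The call ended for Ucp3 without saline 1 or DOX 2 (adjusted p up to 0.127). A call also failed under the mean of the gene's probe sets for Axin1 (0.0644).

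The gene lists were set side by side in the same way, with no test of the difference for a list as a whole. Of the 25 glucocorticoid response genes 14 rose in MT-/- hearts and 6 in MT+/+ hearts, with medians of 1.12 and 0.67. Of the 37 matrix genes 22 and 19 fell, with medians of -1.0 and -0.79, and of the 10 MHC class II genes 5 fell in each. Of the 24 macrophage markers 5 fell in MT-/- hearts and 11 in MT+/+ hearts, with medians of -0.38 and -0.78. Of the 12 neutrophil markers 4 and 0 rose, with medians of 0.25 and -0.09. For complex I, 11 and 4 fell, with medians of -0.25 and -0.17. In each of these lists 0 genes were called for the difference.

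**Figure D5:**
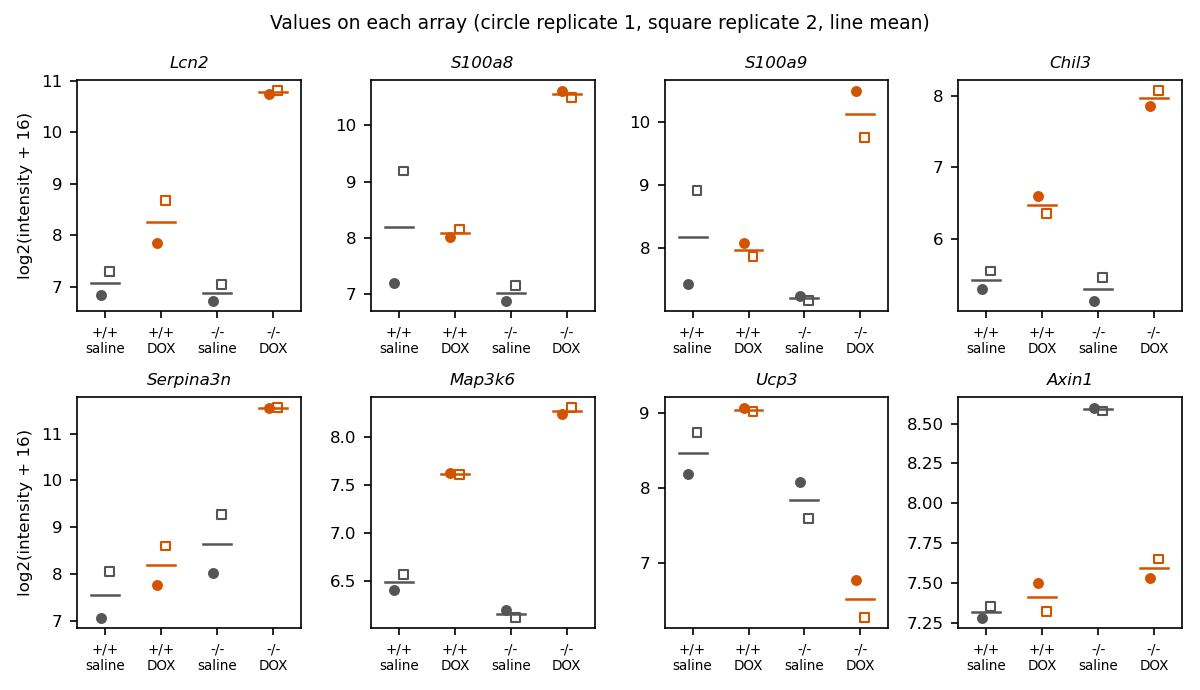
Each panel gives log2(intensity + 16) of 1 gene on all 8 arrays, by genotype and treatment, with a circle for replicate 1, a square for replicate 2 and a line at the mean of both. Lcn2, Chil3, Serpina3n and Map3k6 are highest on both MT-/- DOX arrays, and Ucp3 is lowest there.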

How the data were processed

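Total RNA from mouse hearts was hybridised to 8 one-colour Affymetrix arrays, 2 in each group of genotype and treatment, grouped by the source label. The deposited values are linear intensity per probe set, made with GCOS 1.4 per the submitters' processing notes. The sources used here name neither the signal algorithm nor the scaling. Intensities were quantile normalized, 16 was added and log2 was taken, and probe sets at or above the array median on at least 2 of 8 arrays were tested, without AFFX controls. Group means were fitted over all 8 arrays with limma 3.58.1 in R 4.3.3, with a mean-variance trend. The number of arrays limits the precision.

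A gene was represented by its tested probe set with the highest mean. Genes and lists used only probe sets with exactly 1 gene symbol, which 3282 of the 24751 tested probe sets lacked. Genes were named from the 25 largest called rises and falls, up to 8 members of a list by p, and 11 set genes. Others came from the 10 smallest p of the genotype difference and the 10 largest gaps between replicates of a group. Not all of the genes with such gaps are named. Members, lists and rules were chosen with earlier results of these data known. Any gene named outside that rule was picked with its values in view. No set test was run, and scripts were tested on simulated data.

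Arrays with the same number deviated from their group means together, with correlations between 0.36 and 0.54 for each pair of groups (0.46 for MT-/- saline and MT-/- DOX). The labels do not say what a number marks, so the pairing comes from the data. Alternatives were the deposited scaling, median centring, other pseudocounts and filters, no trend, only the groups compared, the replicate block, each array left out and the mean of a gene's probe sets. Sequences come from RefSeq, and protein sequences were not used here.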

Additional observations from a re-analysis of the deposited data

How the results depend on the processing

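In MT-/- hearts 1538 probe sets were called, 701 higher and 837 lower, and settings other than those named next gave 1394 to 1553. Fitting only the groups compared gave 948, with 430 higher and 518 lower. The replicate block gave 4188, with 1994 higher and 2194 lower, and in MT+/+ hearts 2740, with 1539 higher and 1201 lower, against 613, 301 and 312 without it. For the difference between genotypes the block gave 1 against 0. Beyond the values given beside results, the block changed no other call named in the text. With 1 array left out 384 to 2006 probe sets were called in MT-/- hearts, 167 to 958 higher and 194 to 1048 lower. In MT+/+ hearts 49 to 767 were called, 23 to 401 higher and 26 to 366 lower. The arrays whose omission moved the MT-/- counts by over 1.5 times were both saline arrays and DOX 2 of MT-/-, and for MT+/+ all of its own arrays and both MT-/- saline arrays. The difference gave 0 to 1.

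Some values that were not called changed sign. Top2a, 0.05 in the brightest probe set, was -0.69 as the mean of its probe sets. With 1 array left out it lay between -0.10 and 0.19, Top2b between -0.12 and 0.06, Camp between -0.17 and 0.10, Cdh5 between -0.38 and 0.11, Atp2a2 between -0.15 and 0.04, Egr1 between -2.83 and 0.17, and Fos between -3.06 and 0.51. The genes named in the text were picked by size of change, by p or for keeping the call. How well they kept it thus does not stand for all called genes. Of the 152 called genes in the text, settings other than leaving out 1 array ended at most 5 calls each. With 2 arrays a group, p-values rest largely on the spread pooled over genes, and dim probe sets lie near background. The cause of these shifts was not tested.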

Other observations

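The lists not described above are given by their counts, beside 2.76% higher and 3.98% lower over all genes. Of 36 genes of the cytosolic ribosome 2 rose and 0 fell, at a median of 0.08, and of 32 genes of ribosome biogenesis and translation factors 3 rose and 0 fell. Of 27 hypoxia response genes 3 rose and 3 fell, with Ndrg2, a stress-responsive gene, at 0.71 ± 0.09 and kept without any 1 array. Of 20 genes of branched-chain amino acid breakdown the transporter chain Slc3a2 was the rise, at 8.41 and 8.60 on the saline arrays and 9.61 and 9.55 on the DOX arrays, and 0 fell. Of 32 splicing factors 2 rose and 2 fell, and of 20 genes of the intercalated disc 3 rose and 0 fell (15% higher). Complement and coagulation counted 0 rises and 3 falls among 24, sterol and lipid synthesis 0 and 2 among 27, and haem synthesis 0 and 2 among 13. The list of cardiac transcription factors held 1 rise and 0 falls among 27, and that of beta-adrenergic signalling 1 and 0 among 21. Smooth muscle and pericyte markers counted 1 rise and 4 falls among 15 (6.67% and 26.7%), with 1 to 4 falls when 1 array was left out (fewer without saline 1, saline 2 or DOX 2), and their summed intensity was 20768 and 23281 on the saline arrays and 18806 and 20540 on the DOX arrays.

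Genes in none of the lists and outside the 25 largest changes also moved, and those named here were chosen after their values were seen, from genes that kept the call without any 1 array. Among falls, Pla2g5, a secreted phospholipase, read 7.56 and 7.67 on the saline arrays and 5.93 and 5.82 on the DOX arrays, and Retnla, a secreted product of alternatively activated macrophages, read 8.24 and 8.23 on the saline arrays and 7.07 and 6.92 on the DOX arrays. Itgb6, an integrin chain, fell by 1.66 ± 0.19, the fatty acid carrier Fabp5 fell by 1.21 ± 0.13, and the galectin Lgals1 fell by 1.14 ± 0.14. In these genes both DOX arrays lay below both saline arrays. Among rises, Glul, glutamine synthetase, read 10.53 and 10.66 on the saline arrays and 12.06 and 12.54 on the DOX arrays, and Trim54, a ubiquitin ligase of the sarcomere, read 10.27 and 10.21 on the saline arrays and 11.82 and 11.97 on the DOX arrays. Pim3, a survival kinase, rose by 1.61 ± 0.23, the carbonic anhydrase Car4 by 1.27 ± 0.16, and the secreted chaperone clusterin, Clu, by 1.08 ± 0.13.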
